A study of Mus musculus with 9 samples.

Results

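The genes of mouse chromosome 8 were followed along the chromosome in a salivary gland cell line over serial passage, to place where along it the RNA level shifted relative to the other autosomes. Members were selected on their mean level, taking every row of chromosome 8 with a mean of at least 5 CPM (counts scaled to library size) over the 9 libraries and leaving out 9 named genes. This gave 591 of the 1093 chromosome 8 rows, among 23366 gene rows in all. Of the rest, 493 rows lay under a mean of 5 CPM, 181 of them with 0 counts in every library. At the threshold, *Foxc2* (5.05 CPM on average) and *Kcnn1* (5.06 CPM) were just inside, and *Tmem59l* (4.97 CPM) and *Ccl25* (4.89 CPM) just outside. Because the threshold used the mean of both cell lines, 16 members reached 5 CPM by their average in mSGc only and 14 in IMOK only. The members ran from *Insr*, starting at base 3150922 of the mm9 build, to *Itgb1*, ending at base 131257479, on a chromosome of 131738871 bases. In all, 586 members had at least 1 count in every library.

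The mSGc line was grown out without an added oncogene from submandibular glands of adult male C57BL/6 mice, and its libraries came from cell monolayers. There was 1 library each at P2, P4, P10 and P25 (passage number) in serum free medium (SFM, which holds dexamethasone) and at P10 and P25 in serum containing medium (SCM, which holds retinoic acid, hydrocortisone and triiodothyronine). The sample labels use the names progenitor and differentiating medium. The progenitor medium was read as SFM, being the only medium at P2 and P4, and the other as SCM. IMOK, immortalised oral keratinocytes labelled with the same strain and grown in a medium of their own, gave 3 replicate libraries. Nothing in the labels says whether these replicates were separate cultures, so p-values measure the spread between these samples only, which may be technical. No mSGc condition had a second library, so a difference between 2 mSGc libraries carries no replicate check. Counts summed to 10879981 for P2 and 17089965 for P4. For P10 they summed to 8891878 (SFM) and 13186820 (SCM), and for P25 to 15438288 (SFM) and 6237884 (SCM). The IMOK libraries held 18444963, 18073866 and 16848411 counted reads.

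Cultured mouse cells often change in chromosome number, and gain of chromosome 8 is a recurrent change in mouse embryonic stem cells kept in culture. An additional copy of a chromosome generally raises the RNA of most of its genes, while a change in regulation acts on chosen genes or domains. RNA alone does not separate copy number from regulation. No DNA measurement was analysed here, and the karyotyping that the study describes for this line was not used. In bulk RNA, a gain carried by part of the cells and a smaller rise in every cell cannot be told apart either.

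Both lines carried epithelial markers. Levels corrected for gene length (TPM) of *Krt5*, a basal keratin, were 3119 at P2, 9234 at P4, 9214 and 3910 at P10 in SFM and SCM, 9386 and 2559 at P25 in SFM and SCM, and 4399, 5150 and 4284 in IMOK. *Epcam*, an epithelial adhesion gene, lay between 307 and 692 TPM in mSGc and between 777 and 852 TPM in IMOK. The leukocyte genes *Ptprc* and *Cd79a* and the endothelial genes *Pecam1* and *Kdr* did not exceed 0.819 TPM in any library. The mesenchymal gene *Col1a1* was at 6.68 TPM at P2, at most 0.555 TPM in the later mSGc libraries, and 5.25, 0.395 and 0.345 TPM in IMOK. Other mesenchymal genes, *Col3a1* and *Pdgfra*, did not exceed 2.29 TPM in any library, and *Twist2* reached 4.66 TPM, in IMOK replicate 3. Acinar markers were low in mSGc, where the water channel *Aqp5* ranged from 1.40 to 20.9 TPM and *Bhlha15*, a transcription factor of secretory cells, reached at most 0.478 TPM. In IMOK *Aqp5* was higher, at 213, 111 and 72.9 TPM, and *Bhlha15* reached at most 0.179 TPM. The amylase gene *Amy1* reached at most 3.38 TPM in mSGc and was at 0.129, 22.1 and 24.9 TPM in IMOK. The acinar genes *Smgc* and *Muc19* did not exceed 1.76 TPM in any library. The smooth muscle actin *Acta2* was at 544 TPM at P2, against 106 TPM at P4 and 5.08 to 73.0 TPM in the later mSGc libraries, so P2 differed from the later cultures in this marker. It was at 880 TPM in IMOK replicate 1 and at 7.08 and 13.8 TPM in the other replicates. The luminal keratin *Krt8* was at 6326 TPM at P2, 2940 at P4, 672 and 3743 at P10 in SFM and SCM, and 1172 and 2154 at P25, and *Krt18* at 4548, 1825, 738, 3299, 516 and 1847 TPM in the same order. These keratins thus differed between P2 and the later SFM cultures and between the media. Whether a change in cell make-up after P2 took part in the values below was not tested.

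The shift of a library was the median over the members of log2(CPM + 1) minus the IMOK mean, after subtracting the same median over 9597 genes of the other autosomes. At P2 the shift was -0.02, with 289 of 591 members above 0. It was 0.44 at P4, with 409 members above 0. At P10 it was 0.28 in SFM (398 members above 0) and 0.39 in SCM (427 members). At P25 it was 0.48 in SFM (398 members) and 0.49 in SCM (408 members). Each IMOK library set against the other 2 gave -0.04, 0.02 and 0.01 (SD 0.0314, n = 3). The P2 library thus lay within the range of the IMOK replicates, and the 5 later mSGc libraries all lay above it. In genes from 1 to under 5 CPM, which are not members, this order was absent, and P2 (0.15) lay above all 5. The members held 5.26% of all counts at P2 and between 5.38% and 5.49% in IMOK, against 7.10% at P4, 6.63% and 6.85% at P10 in SFM and SCM, and 7.20% and 7.32% at P25.

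Shifts against IMOK were uneven over the chromosomes. At P2, in a comparison between the lines, the 18 other autosomes already ran from -0.60 (chromosome 19) to 0.49 (chromosome 14). Against IMOK, another autosome lay above chromosome 8 at P4 (chromosome 14, 0.446 against 0.436). The same held at P10 in SFM (chromosome 4, 0.42 against 0.28) and at P25 in SCM (chromosome 14, 0.53 against 0.49). At P10 in SCM and P25 in SFM the highest others, 0.32 (chromosome 13) and 0.46 (chromosome 14), lay below chromosome 8. IMOK replicate 1 was the most distant of the 3, with chromosome shifts from -0.43 (chromosome 13) to 0.38 (chromosome 12), against -0.18 to 0.17 for replicate 2 and -0.18 to 0.26 for replicate 3. Without IMOK replicate 1 the chromosome 8 shift was -0.03 at P2, 0.43 at P4, 0.24 and 0.36 at P10 in SFM and SCM, and 0.47 and 0.50 at P25. The order of P2 below every later library did not depend on that replicate.

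Setting the later libraries against P2 removes IMOK from the comparison, at the price of sharing the P2 library among them. The chromosome 8 shift from P2 was 0.43 at P4, 0.24 (SFM) and 0.38 (SCM) at P10, and 0.47 (SFM) and 0.48 (SCM) at P25. The other autosomes ran from -0.14 (chromosome 18) to 0.05 (chromosome 19) at P4. With P2 as reference, chromosome 8 thus had the highest shift of the 19 autosomes. At P10 in SFM the other autosomes ran from -0.55 (chromosome 14) to 0.35 (chromosome 10), and chromosome 8 was exceeded by chromosome 10. At P25 in SFM they ran from -0.54 to 0.20 and in SCM from -0.39 to 0.27, below chromosome 8 in both.

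The members at P4 did not lie at a single level along the chromosome. A single division of the chromosome was sought that left the smallest summed absolute deviation, with at least 20 members a side, and was called placed if the sides differed by at least 0.2 and it removed more deviation than in any IMOK library (at most 1.25%). For P4 against P2 the division fell between *Zfp868*, ending at base 72149447, and *Zfp869*, starting at base 72229037, which are neighbouring zinc finger genes. The median was -0.03 before it and 0.59 after it, and 14.01% of the deviation was removed. The same pair of genes flanked the division at P25 in SFM and in SCM against IMOK, with differences of 0.97 and 0.72 between the sides, and at P4 against IMOK (0.74), where it moved to 63.99 Mb in 3 of 8 alternatives. For P25 in SCM against P2 the division lay at 70.2 Mb. The division lay 1 gene earlier, between *Gm10033* and *Zfp868*, for P25 against P10 in SFM (-0.40 before, 0.40 after) and in SCM (-0.26 before, 0.24 after). No division was placed for P2 or for either P10 library against IMOK, or for P10 in SFM against P2. For P10 in SCM against IMOK the best division fell at the same pair, *Zfp868* and *Zfp869*, with a difference of 0.24, and removed 1.18%, just under the limit, but it left this pair in 4 of 8 alternatives.

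These flanking genes had modest levels of their own. *Zfp868* was at 15.3 TPM at P2, 14.7 at P4, 12.5 and 21.8 at P10 in SFM and SCM, 15.2 and 21.1 at P25, and 24.2, 29.5 and 28.9 in IMOK. *Zfp869* was at 21.1 TPM at P2, 27.2 at P4, 29.0 and 32.3 at P10 in SFM and SCM, 26.5 and 37.0 at P25, and 21.5, 24.99 and 24.1 in IMOK. *Zfp868* lay below every IMOK library in all 6 mSGc libraries, and *Zfp869* lay above every IMOK library in all but P2. Reads of such related zinc finger genes may be assigned to the wrong copy, so the position is given by the medians on both sides and not by these 2 genes.

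Because more than 1 step was visible, the chromosome was then divided into any number of stretches of at least 20 members, the number being set by a Bayesian information criterion. This division, and every comparison of stretches that follows, was chosen after seeing the data. P4 against P2 gave 9 stretches, which together removed 29.6% of the deviation. Among the other autosomes the same procedure gave at most 3 stretches in this comparison and removed at most 3.72% (chromosome 17). P2 against IMOK, P10 in SFM against P2 and P10 in SFM against IMOK each gave a single stretch. P10 in SCM gave 2 stretches against P2, which removed 1.17% of the deviation, and 5 against IMOK, which removed 4.81%. Of its 4 boundaries against IMOK, 3 lay within 10 members of a boundary of P4 against P2. Those 5 stretches became 2 without IMOK replicate 1 and 1 by squared deviations, so this recurrence depends on the reference and the method.

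From the centromeric end, stretch 1 of P4 against P2 held 82 members from *Insr*, the insulin receptor, to *Whsc1l1*, and its median was -0.10. Stretch 2, 37 members from *Ppapdc1b* (starting at base 26830520) to *Eri1* (ending at base 36558587), had a median of 0.57. Stretch 3, 21 members from *Mfhas1* to *Sorbs2* (bases 36650852 to 46913260), had a median of -0.45. The level therefore stepped up near 26.8 Mb and down again near 36.6 Mb, well before the single division. Stretch 4, 48 members from *Ufsp2* to *Zfp868*, had a median of 0.02. Stretch 5, the longest, with 211 members from *Zfp869* to *Nae1* (bases 72229037 to 107058537), had a median of 0.57, and 183 of its members lay above 0. Stretch 6, 56 members from *Pdp2* to *Psmd7* (bases 107115368 to 110112382), had the highest median, 1.00, and 54 of its members lay above 0. Between stretches 4 and 6 the level thus stepped up at both boundaries. Stretch 7, 45 members from *Zfhx3* to *Maf* (bases 111238544 to 118230794), had a median of -0.16. Stretch 8, 43 members from *Cmc2* to *Aprt* (bases 119412585 to 125100807), had a median of 0.95, and all 43 lay above 0. Stretch 9, 48 members from *Galns* to *Itgb1*, had a median of 0.54. Stretch 7 was a low block of 6.99 Mb between high ones, set off by gaps of 1.13 Mb and 1.18 Mb that hold no member.

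Stretches 2, 5, 6, 8 and 9, each with a median of at least 0.2 at P4 against P2, are called the higher stretches below. They held 395 members over 59.4 Mb, and the remaining stretches held 196 members over 66.0 Mb. Their medians at P4 against P2 were 0.64 and -0.11, a difference of 0.75 that the choice of stretches fixes. Comparisons that use neither the P2 nor the P4 library were read on the same stretches. For P25 against P10 in SFM, the median was 0.47 in the higher stretches, with 287 of 395 members above 0, and -0.48 in the remaining ones, with 43 of 196 above 0. For P25 against P10 in SCM, the medians were 0.29 (278 members above 0) and -0.35 (44 members above 0). Stretch 2 hardly rose in SFM, with a median of 0.13 and 21 of 37 members above 0. The other higher stretches had medians from 0.36 to 0.87 there. In SCM stretch 2 had a median of 0.27, with 27 of 37 members above 0. The difference between the 2 kinds of stretch was 0.95 in SFM and 0.65 in SCM. In IMOK libraries set against each other it was 0.02, -0.05 and -0.03 (SD 0.0362, n = 3). Both P25 to P10 differences were larger than these, although each rests on 2 libraries. Between the media within mSGc the same value was 0.19 at P10 and -0.11 at P25, so the IMOK spread may understate that between mSGc cultures. In these comparisons the remaining stretches were lower in P25 than in P10, as the higher stretches were higher, and the whole-chromosome shift was only 0.16 in SFM and 0.09 in SCM. The other autosomes ran from -0.45 (chromosome 18) to 0.50 (chromosome 14) in SFM. In SCM they ran from -0.32 (chromosome 7) to 0.34 (chromosome 14), so chromosome 8 as a whole did not stand out in either.

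The P10 libraries stood between P4 and P25 in passage but showed less of this pattern, or none. Against P2, P10 in SFM had a median of 0.24 in the higher and 0.26 in the remaining stretches, and P10 in SCM had 0.41 and 0.25. The differences, -0.02 and 0.15, compare with 1.01 (SFM) and 0.85 (SCM) at P25. All 4 share the P2 library. In SFM, P10 was thus shifted upward by similar amounts in both kinds of stretch, with 279 of 395 and 139 of 196 members above 0. In SCM the higher stretches were shifted more, with 347 of 395 members above 0 against 147 of 196, though by far less than at P25. P25 in SFM against P4 had a difference of 0.18, and its largest window shift was 0.38. The libraries were taken as labelled.

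Against IMOK the same stretches can be read in every library. In the highest stretch (*Pdp2* to *Psmd7*) the median was 0.02 at P2, 0.99 at P4, 0.43 and 0.51 at P10 in SFM and SCM, and 1.25 and 1.09 at P25. In the low block (*Zfhx3* to *Maf*) it was -0.24 at P2, -0.23 at P4, 0.05 and 0.12 at P10, and -0.24 and -0.16 at P25. The gap between these neighbouring blocks was 1.21 at P4 and 0.26 at P2, and the choice of stretches fixes that contrast. It was 1.498 and 1.26 at P25, against 0.38 and 0.39 at P10, libraries that took no part in the choice. Both P25 libraries thus stood apart from both P10 libraries. In IMOK libraries set against each other the gap was -0.33, 0.04 and 0.14. In stretch 3 (*Mfhas1* to *Sorbs2*) the median was -0.40 at P2, -0.77 at P4, -0.23 and -0.10 at P10, and -1.002 and -0.60 at P25. That stretch was the lowest of all in every mSGc library.

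Most positions of the boundaries recurred in the comparisons without P2 and P4. P25 against P10 was divided into 8 stretches in SFM and 7 in SCM, but into 5 and 4 by squared deviations, with which the recurrence was not counted. Of the 8 boundaries found in P4 against P2, 5 had a boundary within 10 members in SFM (which has 7 boundaries) and 5 in SCM (which has 6). The boundaries between *Eri1* and *Mfhas1*, between *Psmd7* and *Zfhx3* and between *Maf* and *Cmc2* fell at exactly the same pair of genes in all 3 comparisons, and the one at *Zfp868* lay within 1 member. The boundary near *Fgfr1* and *Whsc1l1* lay within 5 members, at bases 26127683 in SFM and 26712778 in SCM. In contrast, the steps between *Sorbs2* and *Ufsp2*, between *Nae1* and *Pdp2* and between *Aprt* and *Galns* had no boundary within 10 members in either. In SFM a low stretch of 23 members from *Nod2* to *Rspry1* (median -0.26) divided stretch 5.

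In 24 windows of 25 consecutive members, P4 against P2 ranged from -0.39 (*Tusc3* to *Stox2*) to 1.00 (*Nutf2* to *Cyb5b*), with an SD of 0.415 over windows. Over 384 windows of other autosomes the SD was 0.128, and the chromosome with the most uneven windows, chromosome 17, had 0.193. In the window from *Nutf2* to *Cyb5b*, all 25 members lay above 0 at P4 against P2, 23 did so for P25 against P10 in SFM (median 0.87) and 21 in SCM (median 0.59). In the window from *Tusc3* to *Stox2* only 6, 8 and 6 members did so, with medians of -0.39, -0.72 and -0.44. These windows marked the extremes of chromosome 8 in all 3 comparisons. For P25 against P10, windows of other autosomes reached farther, from -0.83 to 1.05 in SFM and from -0.86 to 1.02 in SCM. There the SD over windows was 0.489 (SFM) and 0.323 (SCM) on chromosome 8. On chromosome 4, the most uneven of the others, it was 0.347 and 0.293. Within stretch 5, the window from *Lsm6* to *Cd97* was lower than its neighbours, at 0.09, -0.12 and -0.22. Over the 24 windows, Pearson's r between P4 against P2 and P25 against P10 was 0.956 in SFM and 0.902 in SCM, while over the 384 windows of other autosomes it was 0.281 and 0.119. With SCM against SFM at P10 it was 0.442 over the 24 windows and -0.122 over the others. Over single genes the contrast was smaller, with r of 0.611 and 0.644 for SFM and SCM on chromosome 8 and 0.375 and 0.467 on the other autosomes. These correlations describe 6 libraries and carry no p-value, since windows of a chromosome are not independent replicates and share base composition and gene density.

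The profile of chromosome 8 was not the only uneven profile at late passage. For P25 against P10 in SCM, chromosome 4 was divided into 5 stretches with medians from -0.40 to 1.05, and chromosome 15 into 5 stretches with medians from -0.57 to 0.21. Chromosome 8 had 7 stretches, with medians from -0.42 to 0.61, and the division removed 14.4% of the deviation, against 10.3% on chromosome 4 and 6.15% on chromosome 15. At P4 against P2, by contrast, the widest spread of stretch medians outside chromosome 8 was 0.82, on chromosome 17, where it was 1.46 on chromosome 8.

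The stretches also differed in properties that the rule did not use. Median exon GC was 54.3% in stretch 5, 53.7% in stretch 6, 56.0% in stretch 8 and 53.9% in stretch 9, all higher stretches. It was 50.7%, 46.4%, 45.4% and 50.9% in stretches 1, 3, 4 and 7. Stretch 2 broke this order, being higher with a GC of 47.4%. Members were dense in stretch 6, with 18.7 per Mb, and sparse in stretches 3 and 4, with 2.05 and 1.91 per Mb. When a trend on exon GC, fitted on the other autosomes, was subtracted, the difference between the higher and the remaining stretches was 0.71 for P4 against P2, 0.92 for P25 against P10 in SFM and 0.70 in SCM. With a trend on gene density it was 0.70, 0.85 and 0.66. In IMOK libraries set against each other, the GC trend gave -0.12, -0.01 and 0.04 and the density trend -0.09, -0.04 and 0.03. Without these trends the 3 mSGc values were 0.75, 0.95 and 0.65. Both trends were added after seeing the data. Fitted on the other autosomes, they cannot remove a relation particular to chromosome 8. Whether base composition or gene density took part in the difference was not tested. The difference between the stretches was present at each level of expression. In the lowest, middle and highest 197 members by mean CPM it was 0.90, 0.91 and 0.99 for P25 against P10 in SFM and 0.62, 0.59 and 0.70 in SCM.

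Genes of DNA replication also differed between these libraries. The summed level of *Mcm2*, *Mcm3*, *Mcm4*, *Mcm6* and *Mcm7*, helicase subunits encoded on other chromosomes and chosen after the values were seen, was 373 TPM at P2, 601 at P4, 261 and 442 at P10 in SFM and SCM, and 785 and 888 at P25. It was thus higher at P4 and P25 than at P2 and P10. In IMOK it was 218 TPM in replicate 1 and 830 and 923 in replicates 2 and 3. For replicate 1 against the other IMOK libraries, the difference between the higher and the remaining stretches was 0.02, and the gap between stretches 6 and 7 was -0.33. The part of proliferation in the mSGc values was not tested.

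Single members followed their stretch to different degrees. Of the 395 members in higher stretches, 239 (60.5%) lay above 0 in all 3 of P4 against P2 and P25 against P10 in either medium, and 29 (7.34%) lay below 0 in all 3. Of the 196 others, 20 (10.2%) lay above 0 and 102 (52.0%) below 0 in all 3. In stretches 6 and 8, 0 members lay below 0 in all 3 comparisons. As 54 of 56 and all 43 of their members lay above 0 in P4 against P2, this was nearly or wholly fixed. P4 against P2 chose the stretches, so the other shares are partly fixed by it.

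The abundant members of the listed roles show this gene by gene. *Cox4i1*, a subunit of cytochrome c oxidase in stretch 8, was at 1095 TPM at P2, 1569 at P4, 1355 and 1324 at P10 in SFM and SCM, 1640 and 1648 at P25, and 1117, 1083 and 974 in IMOK. It was lowest at P2 within mSGc, highest at P25, and at P2 was close to IMOK. *Rpl13*, a ribosomal protein gene in stretch 9, was at 3656 TPM at P2, 6467 at P4, 7732 and 5099 at P10, 9644 and 7437 at P25, and 5797, 4251 and 4142 in IMOK. *Acd*, a shelterin gene of telomere protection in stretch 6, was at 35.5 TPM at P2, 63.1 at P4, 46.8 and 56.0 at P10, 84.4 and 80.2 at P25, and 58.8, 44.6 and 46.4 in IMOK. *Acd* again had its lowest value at P2 and its highest values at P25, with P4 above both P10 libraries. Ribosomal protein genes have processed copies elsewhere, so the level of *Rpl13* is uncertain.

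Members of the remaining stretches took other courses. *Lamp1*, a lysosomal membrane glycoprotein in stretch 1, was at 733 TPM at P2, 400 at P4, 524 and 677 at P10 in SFM and SCM, 336 and 334 at P25, and 731, 542 and 562 in IMOK. *Slc25a4*, a mitochondrial ADP and ATP carrier in stretch 4, lay between 506 and 679 TPM in mSGc and between 595 and 845 TPM in IMOK. *Lamp1* was low at P4 and P25, while *Slc25a4* varied little. Some members of higher stretches went against their neighbours. *Itgb1*, an integrin subunit and the last member, was at 804 TPM at P2, 437 at P4, 477 and 493 at P10, 321 and 384 at P25, and 668, 713 and 863 in IMOK. *Jund*, a transcription factor of the AP-1 family, was at 181 TPM at P2, 103 at P4, 115 and 242 at P10, 78.9 and 99.6 at P25, and 221, 143 and 151 in IMOK. For both, P4 and P25 lay below P2.

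Across the 9 role lists, the medians at P4 against P2 ran from -0.08 to 1.29. Of 9 translation genes 7 lay in higher stretches, and the list had a median of 1.00. Of 11 genes of protein folding and degradation 10 did so, with a median of 0.71. The 5 measured metal and redox genes all did so, with a median of 1.29, against 0.43 for all members. In contrast, of 8 genes of matrix, adhesion and cytoskeleton 3 did so, with a median of 0.11, and of 14 genes of growth factor and kinase signalling 6, with a median of -0.06. The other lists had medians of 0.42 (4 telomere genes, 3 in higher stretches), 0.43 (19 replication and cell cycle genes, 9 in higher stretches), 0.55 (10 mitochondrial genes, 6 in higher stretches) and -0.08 (12 transcription factors, 9 in higher stretches). Of all members 395 of 591 lay in higher stretches, and the stretches were chosen by the comparison that ranks these lists, so nothing is read from the order of the lists. *Cyba* and *Klf2* were listed but were not members.

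P25 was compared with P10 over all genes with edgeR's quasi-likelihood test, with medium as a block, 2 libraries a side and 1 residual degree of freedom, a fit added after seeing the data. Of 588 members tested, 46 were higher and 31 lower at P25 at a Benjamini-Hochberg adjusted p under 0.05, against 3.22% of 11938 genes higher and 4.44% lower. The calls divided by stretch, with 44 higher and 5 lower among 395 tested members of higher stretches and 2 higher and 26 lower among 193 of the others. Without TMM factors 37 members were higher and 40 lower (334 and 631 over all genes), and the median of all genes moved from -0.02 to -0.12. Without the filter on low counts, 85 were higher and 58 lower, with 757 and 1049 of 16456 genes.

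Of the 19 replication and cell cycle genes, 8 were called higher at P25 and 0 lower, beside 46 and 31 of 588 members and 3.22% and 4.44% of all genes. The rest of the list was not called in either direction. Of the other lists, translation and protein folding had 2 higher each, metal and redox 1 higher, growth factor signalling 3 lower and transcription factors 1 lower, and the rest had 0. *Mcm5*, the chromosome 8 subunit of the replicative helicase, is not on that list and was at 39.2 and 106 TPM at P10 in SFM and SCM and at 284 and 319 TPM at P25, with 76.2 TPM at P2, 221 at P4 and 36.8, 158 and 182 in IMOK. Its log2 fold change was 2.39 (SE 0.353, edgeR adjusted p = 0.0167, 2 libraries a side). *Asf1b*, a histone chaperone of replicating cells, was at 16.6 and 51.0 TPM at P10 and at 152 and 184 TPM at P25, with 41.9 TPM at P2, 97.6 at P4 and 37.9, 117 and 120 in IMOK. Its log2 fold change was 2.67 (SE 0.359, edgeR adjusted p = 0.0143). Both lie in stretch 5, and in IMOK both were low in replicate 1, as the helicase genes of other chromosomes were. *Cenpn*, a centromere protein gene in stretch 8, was at 14.9 and 31.3 TPM at P10 and 76.3 and 94.9 TPM at P25 (log2 fold change 2.14, SE 0.276, edgeR adjusted p = 0.0133). *Hmgb2*, a chromatin protein of dividing cells in stretch 4, also rose (113 and 233 TPM at P10, 275 and 428 TPM at P25, log2 fold change 1.25, edgeR adjusted p = 0.0291), so calls of this kind were not limited to higher stretches. *Adcy7*, an adenylate cyclase, *Haus8*, *Cmc2* and *Fanca*, a DNA repair gene, rose with log2 fold changes from 1.85 to 2.11. *Ces1g*, a carboxylesterase, was called higher from 0 and 3 counts at P10 and 187 and 11 counts at P25, and its fold change is not given.

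Among the members that fell at P25, *Gas6*, a ligand of TAM receptor kinases in stretch 1, was at 284 and 239 TPM at P10 in SFM and SCM and 40.3 and 41.4 TPM at P25, with 131 TPM at P2, 69.5 at P4 and 308, 95.7 and 64.995 in IMOK. Its log2 fold change was -2.50 (SE 0.223, edgeR adjusted p = 0.00573). *Il34*, a cytokine for the CSF1 receptor in stretch 7, was at 64.8 and 57.4 TPM at P10 and 9.86 and 9.36 TPM at P25, with 127 TPM at P2, 44.1 at P4 and 14.1, 5.36 and 4.41 in IMOK. Its log2 fold change was -2.50 (SE 0.239, edgeR adjusted p = 0.00588). For both genes P4 lay below P2 and P25 below P10. *Aga*, a lysosomal hydrolase in stretch 4, was at 87.6 TPM at P2, 15.2 at P4, 57.1 and 50.7 at P10 and 12.9 and 10.4 at P25 (log2 fold change -2.04, edgeR adjusted p = 0.0143), and followed the same course. *Hp*, which encodes haptoglobin, was at 341 TPM at P10 in SCM and at most 14.2 TPM in every other library. It had 50 and 2902 counts at P10 in SFM and SCM and 1 and 0 counts at P25, and its fold change is not given. Without P10 in SCM its mean lay under 5 CPM, so part of its fall follows from the selection of members. *Defb1*, a beta defensin, and *Mtss1l* fell with log2 fold changes of -3.30 and -1.94.

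Over the log2 passage number within mSGc, with medium as a covariate, 0 of 589 members were higher and 3 lower in edgeR's test, against 0.0482% of 12451 genes higher and 0.442% lower. At an unadjusted p under 0.05, 52 members were higher and 33 lower, with 1648 of 12451 genes in either direction. DESeq2 called 10 members higher and 23 lower, and 127 higher and 623 lower of 17402 genes. The called members were *Efnb2*, an ephrin ligand (log2 fold change per doubling of passage -1.41, SE 0.0951, adjusted p = 0.00700), *Sorbs2*, a cytoskeletal adaptor (-1.63, SE 0.136, adjusted p = 0.0155), and *Tlr3*, a sensor of viral RNA (-0.93, SE 0.120, adjusted p = 0.0382), all from that edgeR test on 6 libraries. *Sorbs2* was at 349 TPM at P2, 106 at P4, 38.0 and 249 at P10 in SFM and SCM, 4.05 and 49.5 at P25, and 41.5, 12.3 and 13.99 in IMOK. *Tlr3* was at 108 TPM at P2, 26.6 at P4, 15.9 and 79.3 at P10, 8.29 and 25.02 at P25, and 21.7 to 25.8 in IMOK. In SFM both levels were lower at each later passage, and in SCM they were higher than in SFM at the same passage. Leaving out P2, P4 or P25 in SFM ended all 3 calls, and leaving out P10 in SFM gave 10 lower and 7 higher, with 250 lower and 79 higher of 12455 genes. In this fit the median log2 fold change per doubling of passage was 0.15 over 395 members of higher stretches and -0.05 over 194 of the others. P2 and P4, which chose the stretches, take part in it. Why few members were called was not tested.

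For SCM against SFM, with passage as a covariate, 1 of 589 members was higher and 0 lower in edgeR's test, against 0.0241% of 12451 genes higher and 0% lower. At an unadjusted p under 0.05, 34 members were higher and 17 lower, with 1018 of 12451 genes in either direction. DESeq2 called 15 members higher and 1 lower, and 204 higher and 81 lower of 17402 genes. The called member was *Efnb2*, with a log2 fold change of 3.09 (SE 0.246, edgeR adjusted p = 0.0231). It was at 53.7 TPM at P2, 17.1 at P4, 5.08 and 55.5 at P10 in SFM and SCM, 1.39 and 10.5 at P25, and 30.0, 15.5 and 18.7 in IMOK. The levels in SCM exceeded those in SFM at both passages that have both media. Leaving out P2, P4, P10 in SCM or P25 in SFM ended the call, and leaving out P10 in SFM gave 4 higher (52 over all genes). With P10 and P25 alone and passage as a block, 10 members were higher and 0 lower, against 90 and 33 of 11938 genes.

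Between the lines, 93 of 591 members were higher and 20 lower in mSGc in edgeR's test, against 6.58% of 12885 genes higher and 8.30% lower. By levels that did not overlap, 88 members lay above and 33 below IMOK in every mSGc library, against 7.28% of 10518 genes above and 13.3% below. The chromosome was chosen with this contrast known, so nothing is read from these counts. The median log2 fold change was 0.36 over the members and 0.00 over all genes, and without TMM factors 0.25 and -0.10. Over all genes the calls were 848 higher and 1070 lower, and without TMM factors 663 higher and 1373 lower. DESeq2 called 149 members higher and 28 lower, and 1550 higher and 1505 lower of 18293 genes. Leaving out P4 left 60 members higher, with 602 higher over all genes. Leaving out IMOK replicate 2 left 21 members higher and 7 lower (277 and 461 over all genes), and leaving out replicate 3 left 29 and 11 (326 and 617). Cell line, medium and experiment change together here and cannot be told apart.

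*Mt2*, a metallothionein that binds metals, was at 1543 TPM at P2, 3341 at P4, 5205 and 2154 at P10 in SFM and SCM, 3166 and 2349 at P25, and 298, 79.7 and 78.8 in IMOK. *Mt1*, its neighbour and close copy, was at 1544 TPM at P2, 3484 at P4, 5177 and 2353 at P10, 3408 and 2407 at P25, and 519, 377 and 362 in IMOK. Both were above IMOK in every mSGc library, though reads may be shared between the 2 copies. *Fbxw9*, an F-box gene, lay between 76.9 and 146 TPM in mSGc and at 37.1, 18.6 and 11.2 TPM in IMOK. *B3gnt3*, a glycosyltransferase, lay between 4.03 and 41.5 TPM in mSGc and at most at 0.551 TPM in IMOK, and it met the 5 CPM minimum through mSGc alone, so part of its difference follows from the selection of members.

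On the lower side, *Plat*, tissue plasminogen activator, lay between 0.601 and 7.31 TPM in mSGc and at 67.2, 60.6 and 68.1 TPM in IMOK. *Nrp1*, a receptor for semaphorins and VEGF in stretch 9, was at 17.7 TPM at P2, 12.5 at P4, 7.57 and 20.02 at P10 in SFM and SCM, 2.92 and 4.95 at P25, and 114, 222 and 219 in IMOK. *Tenm3*, a teneurin adhesion protein, had 0 to 19 counts in mSGc libraries and 1863, 3792 and 3706 counts in IMOK. *Cotl1*, an actin-binding protein, lay between 43.1 and 156 TPM in mSGc and at 417, 407 and 444 TPM in IMOK. *Abhd8* and *Plekha2* were also lower, with log2 fold changes of -2.55 and -1.72. *Tenm3* and *Abhd8* met the 5 CPM minimum through IMOK alone, so part of their difference follows from the selection of members. Of the others, *Nrp1* and *Cotl1* lie in higher stretches.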

How the data were processed

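The authors aligned RNA-seq reads of 6 mSGc and 3 IMOK libraries to mm9 (TopHat2 2.1.1, Bowtie2 2.2.6) and deposited raw read counts per gene from featureCounts 1.5.1, per the submitters' processing notes, with each gene's summed exon length as another deposited column. Annotation, strand setting and the handling of reads with several positions are not given in the sources used here, so overlapping and duplicated genes are uncertain. The authors' counts carry no normalization. By counting error alone, a count of 0 leaves room for up to 3 counts, or 0.163 to 0.481 CPM.

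CPM, TPM, shifts (pseudocount of 1), windows and divisions were computed in Python 3.11.15 with numpy 2.4.6, pandas 2.3.3, scipy 1.17.1 and statsmodels 0.14.6. Counts were tested in R 4.3.3 with edgeR 4.0.16 (quasi-likelihood, TMM, filterByExpr, Benjamini-Hochberg over all genes), and DESeq2 1.42.0 was the alternative. An SE is the absolute log2 fold change over the square root of F. Exon GC was read from a genome of the same build for all 11842 autosomal genes with at least 1 CPM. The fits and the division into stretches were tried on simulated data, but the outcome is not given here and nothing is read from it.

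The members and lists were chosen with earlier results of these data known. Genes named flank a placed division, are the 2 most abundant of a role list, are up to 8 per direction and fit with the largest change and at least 10 TPM in 2 libraries, lie farthest from the chromosome's own deviation (4 a side), stand at the threshold or the chromosome's ends, or lie at the end of a window singled out. Stretch ends, the boundary gene *Fgfr1* and the helicase genes of other chromosomes were named after seeing the data.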

Additional observations from a re-analysis of the deposited data

Results flagged for a closer look

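The difference between the higher and the remaining stretches moved in opposite directions with medium at the 2 passages that have both media. For SCM against SFM it was 0.19 at P10 and -0.11 at P25, from 1 library each, and the difference between passages was not tested. With a trend on exon GC subtracted it was 0.22 at P10 and 0.02 at P25. By means it was 0.07 at P10 and -0.16 at P25. With a trend on gene density it was 0.21 and 0.01, and in genes from 1 to under 5 CPM 0.24 and 0.06. The direction at P25 and the size at P10 thus depended on the method.

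Genes of chromosome 8 from 1 to under 5 CPM, which are not members, number 81, with 57 in the higher stretches and 24 in the others. The difference between these stretches was 0.36 for P4 against P2, 0.61 for P25 against P10 in SFM and 0.45 for P25 against P10 in SCM. In IMOK libraries set against each other it was -0.18, 0.05 and 0.05, for SCM against SFM at P10 it was 0.24, and for P10 in SCM against IMOK -0.21, so the IMOK values may understate the differences between mSGc cultures at these levels. Counting noise is larger at these levels, and a pseudocount of 1 CPM shortens their differences.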

How the results depend on the processing

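Where it had been called placed, the single division stayed within 1 Mb of its place in 39 of 44 alternatives and moved in 5. These do not count P10 in SCM against IMOK, which was not placed. For P25 in SCM against P2, which was placed, no alternatives were run. The chromosome 8 shift moved by less than the IMOK spread in 62 of 83 alternatives. Genes from 1 to under 5 CPM gave 0.15 at P2, 0.13 at P4, 0.086 and 0.036 at P10 in SFM and SCM, and -0.00216 and 0.12 at P25, so that P2 lay above all 5 later libraries and the shift at P25 in SFM lost its direction. A mean in place of the median gave 0.39 at P4 and 0.42 and 0.45 at P25 in SFM and SCM. A minimum of 1 CPM gave 0.44 and 0.43 at P25, one of 20 CPM 0.52 and 0.53, and subtracting length and level trends 0.43 and 0.45. At P25 in SCM, trends on exon GC and on gene density gave 0.54 and 0.54. At P10 in SFM the shift was 0.24 against P2, 0.24 when centred without chromosomes 5 and 14, and 0.24 to 0.29 without an IMOK replicate. At P10 in SCM, TMM factors without centring gave 0.34.

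The difference between stretches for P25 against P10 in SFM was 1.00 with a pseudocount of 0.25, 0.90 from 1 CPM, 0.61 from 1 to under 5 CPM, 0.86 with length and level trends, 0.92 with the GC trend and 0.85 with the density trend. In SCM it was 0.45 from 1 to under 5 CPM, 0.74 by means and 0.70 with the GC trend. In IMOK libraries set against each other, length and level trends gave 0.14, -0.06 and -0.08. Squared deviations gave 5 stretches in SFM and 4 in SCM. Windows of 40 members lowered the SD over windows to 0.352 for P4 against P2, 0.415 for P25 against P10 in SFM and 0.267 in SCM.

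Members not overlapping between lines numbered 96 to 147 above and 36 to 64 below without an IMOK replicate, as the shares of all genes rose to at most 15.3% and 21.6%. Members called between lines numbered 21 to 121 higher and 7 to 21 lower when leaving out a library (277 to 938 and 461 to 980 over all genes), and 149 higher with DESeq2 (1550). For passage, leaving out a library gave 0 to 7 higher and 0 to 10 lower (0 to 79 and 0 to 250 over all genes), DESeq2 gave 10 and 23 (127 and 623), no filter 1 and 5 (19 and 142), and the untransformed passage number 1 and 5 (14 and 112). For medium, leaving out a library gave 0 to 4 higher (0 to 52 over all genes), DESeq2 15 higher and 1 lower (204 and 81), and P10 and P25 alone with passage as a block 10 higher (90). For P25 against P10, no filter gave 85 higher and 58 lower (757 and 1049). The causes of these changes were not tested. Alternatives on GC, gene density, stretches and P25 against P10 were chosen after seeing the data.

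With 1 library per mSGc condition, each shift and boundary describes that library. The shallowest library, P25 in SCM, has a level of 0.481 CPM at 3 counts. Boundaries closer than 20 members cannot be seen, and their place is no finer than the distance between expressed genes.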
